A study of Mus musculus with 6 samples.

Results

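The cytosolic ribosomal proteins, the protein components of the ribosome that works outside mitochondria, were compared between Sec15 KO and WT mouse liver. Members were the non-control probes whose transcript accession maps to a RefSeq mouse symbol of the form Rpl or Rps with a number, Rplp0 to Rplp2, or Rpsa. This rule used names alone and no measured value. It matched 89 symbols, 85 of which had a probe, for 175 of the 39429 probes on the array. The 4 symbols without a matched probe were Rps12l1, Rpl6l, Rps3a2 and Rps3a3. Of these 175, 167 stood well above background on 3 or more of the 6 arrays, and these covered 82 of the 22834 genes that were tested. Rpl10l, Rpl39l and Rpl3l did not pass, with no array on which a probe of theirs was well above background.

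A ribosome has a large and a small subunit, each built from ribosomal RNA and a fixed set of proteins that are made in nearly equal amounts. Mammalian ribosomal protein messages begin with a cytidine and a run of pyrimidines, the terminal oligopyrimidine (TOP) tract, through which mTORC1 and its partner LARP1 adjust their translation and stability together. Liver makes secreted plasma proteins in large quantity, and ribosomal protein messages are among its most abundant.

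Total RNA came from the liver of 6-week-old male mice with no treatment, in 3 samples labelled WT and 3 labelled Sec15 KO, each hybridised with Cy3 to 1 one-colour array. Sec15 is a subunit of the exocyst, which tethers secretory vesicles to the plasma membrane. The labels give neither the strain nor which Sec15 gene was deleted, in which cells or how, so how the model limits the comparison is not known here. They do not say that each sample came from its own animal either, so a p-value here is set against the spread of these samples alone, part of which may be technical.

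Values are log2 signal relative to the array's own 75th percentile (0 is a spot as bright as that percentile), and differences are Sec15 KO minus WT. The scan times in the file headers form 2 groups, called scans here: the 3 WT arrays and Sec15 KO replicate 2 in scan 1, Sec15 KO replicates 1 and 3 in scan 2. No spot was saturated, and 64.8% to 70.3% of probes were well above background on an array. All 7 hepatocyte markers with a probe were well above background on every array. With 3 arrays a group, their number limits the precision.

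Short pieces of the promoters of some members are shown first, because the TOP tract is a feature that ribosomal protein messages share. Whether it bears on their change was not tested. Each piece runs from 40 bases before the annotated transcription start to 20 bases from it on, 5′ to 3′ on the gene's strand, in RefSeq's assembly GRCm38.p6. Capitals mark the nearest run of at least 5 pyrimidines that holds a C, within 20 bases of the start. The first 5 belong to members with the largest rises (Rpl3, the largest, has no entry in the promoter table), and the last 3 have a tract at the annotated start itself.
Rpl5 (chr5:107900488-107900547, + strand): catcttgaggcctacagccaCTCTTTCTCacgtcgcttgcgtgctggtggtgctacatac
Rps7 (chr12:28635934-28635993, - strand): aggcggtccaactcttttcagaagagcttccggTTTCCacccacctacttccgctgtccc
Rps3 (chr7:99483690-99483749, - strand): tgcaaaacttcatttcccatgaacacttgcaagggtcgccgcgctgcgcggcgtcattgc
Rpl36a (chrX:134585614-134585673, + strand): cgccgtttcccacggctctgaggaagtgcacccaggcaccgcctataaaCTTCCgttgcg
Rpl22l1 (chr3:28805468-28805527, + strand): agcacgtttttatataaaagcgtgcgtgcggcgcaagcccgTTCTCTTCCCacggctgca
Rps18 (chr17:33955646-33955705, - strand): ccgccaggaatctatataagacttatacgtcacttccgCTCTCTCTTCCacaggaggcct
Rpl35 (chr2:39005112-39005171, - strand): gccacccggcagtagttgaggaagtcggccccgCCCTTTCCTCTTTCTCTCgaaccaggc
Rpl38 (chr11:114668540-114668599, + strand): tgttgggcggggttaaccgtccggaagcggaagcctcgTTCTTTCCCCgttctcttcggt
Rpl35 has the longest run of the 8 pieces, 18 pyrimidines, and Rps3 has none of at least 5 that lies wholly in its piece within 20 bases of the start.

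A C at the annotated start followed by at least 4 pyrimidines was present for 14 of the 64 members in the table (21.9%) and for 3.01% of all 27025 genes in it. Within 3 bases of the start, the figures were 40.6% of members and 13.5% of all genes. The letters CCGGAAG, the core bound by GABP and other ETS factors, were searched on both strands in the 300 bases from 250 before the start. They occurred for 26 of 64 members (40.6%) and for 9.93% of all genes. On the reverse strand this motif reads CTTCCGG, so it can supply the pyrimidines of a tract. Of the 61 measured members in the table, 14 had a tract at the annotated start, and 8 of these were higher in Sec15 KO. Their median log2 difference was 0.39. Of the 47 without such a match, 25 were higher, with a median of 0.36. The median was 0.34 over the 25 genes with CCGGAAG and 0.37 over the 36 without it. These are matches of letters in any annotated window of a gene, and neither difference in medians was tested. The share of members with a tract depended on the bases allowed around the annotated start, so a member without a match may still have one. The split therefore cannot compare members with and without a TOP tract.

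Of the 82 measured members, 42 (51.2%) were higher in Sec15 KO at a limma adjusted p under 0.05 and 0 were lower. Over all genes tested, 17.5% were higher and 12.2% lower. At an unadjusted p under 0.05 the members gave 55 higher and 0 lower, where 6167 of all 22834 genes were higher. The median log2 difference was 0.36 over the members (1.28-fold) and 0.06 over all genes. In 67 of 82 members all 3 Sec15 KO values lay above all 3 WT values, which was so for 30.6% of all genes. The changes were small: 6 members passed 1.5-fold and none reached 2-fold. Whether more cells of a type or more RNA per cell lies behind a rise cannot be told apart in bulk liver RNA.

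The shift was present on each Sec15 KO array. The median member stood 0.34, 0.34 and 0.39 above its WT mean on Sec15 KO replicates 1, 2 and 3, and 0.03, -0.04 and 0.01 from it on WT replicates 1, 2 and 3. Sec15 KO replicate 1 had 72 members above every WT array, replicate 2 had 74 and replicate 3 had 78. The share of all genes was not counted array by array. All 3 Sec15 KO values lay above all 3 WT values for 30.6% of all genes. For the other genes in the brightest decile by signal that share was 59.9%. Replicate 2 shares scan 1 with the WT arrays, and replicates 1 and 3 are from scan 2. The median of the other genes in the brightest decile by signal stood 0.29, 0.22 and 0.34 above WT on replicates 1, 2 and 3. The part of the scan in these shifts was not tested.

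**Figure D1:**
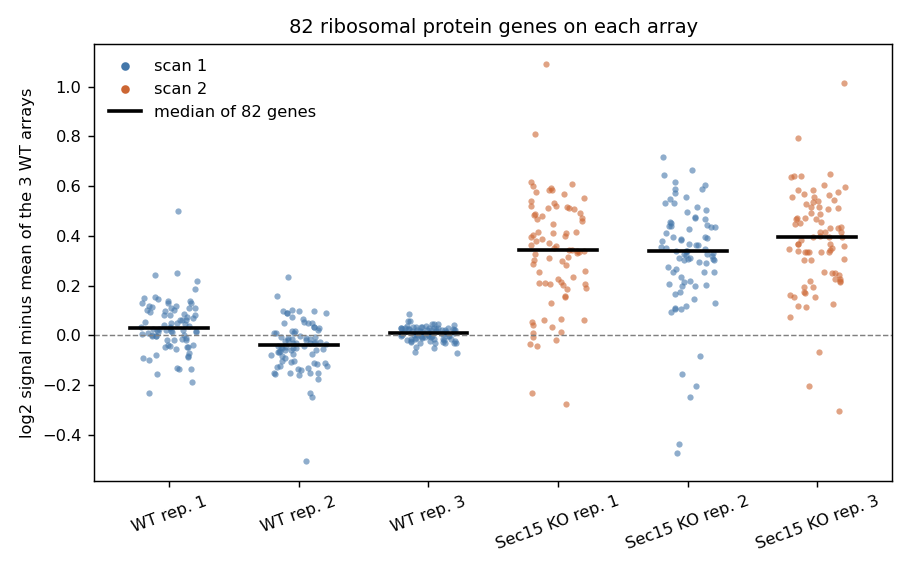
Each point is 1 of 82 ribosomal protein genes, plotted as its log2 signal minus the mean of the 3 WT arrays (y axis) on each array (x axis), with scans in colour and the median as a bar. The 3 Sec15 KO medians lie at 0.34 to 0.39 and the WT medians between -0.04 and 0.03, and Sec15 KO arrays of both scans are raised.

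The members are bright, and the median bright gene also read higher in Sec15 KO. Of the 82, 75 lay in the brightest decile of all tested genes by mean signal. The 2209 other genes of that decile had a median log2 difference of 0.28 (1.22-fold), with 35.9% of them called higher, 3.89% called lower and 59.9% with no overlap between the groups. The 75 members there had a median of 0.36, with 53.3% called higher and 64 not overlapping. Against the median of the other genes in its own decile, the median member stood 0.078 higher on the log2 scale, and 55 of 82 stood above it. In the brightest fiftieth the medians were 0.35 for 25 members and 0.18 for 432 other genes, and in the fiftieth next to it 0.33 for 25 members and 0.32 for 432 others.

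**Figure D2:**
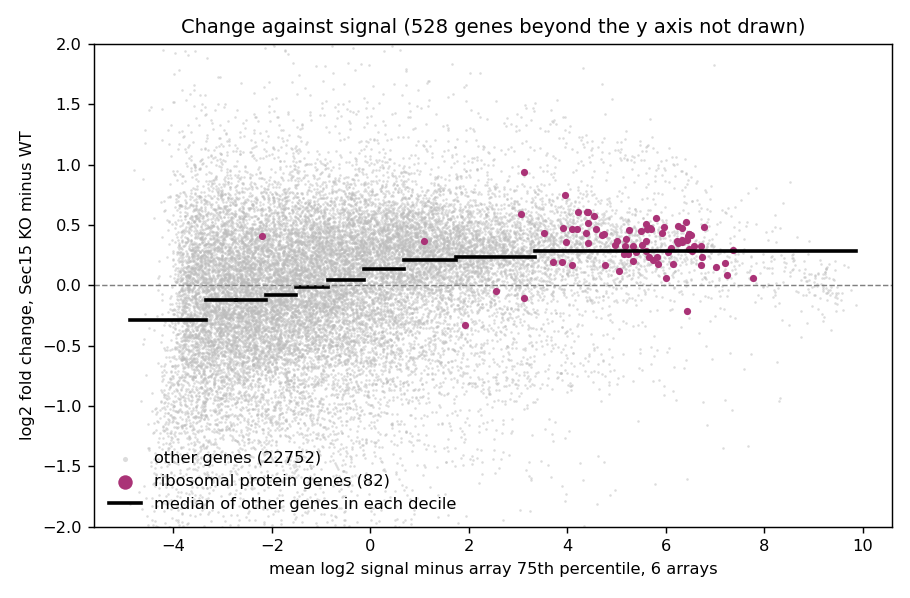
Log2 difference between Sec15 KO and WT (y axis) against mean log2 signal over the 6 arrays relative to the 75th percentile (x axis), with members coloured, other genes grey, and a bar for the median of the other genes in each decile by signal. The bars climb from -0.29 in the dimmest decile to 0.28 in the brightest, where 75 of the 82 members lie.

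Cyclic loess, a normalisation that removes differences between arrays that follow brightness, took away most of the shift. After it the median over members was 0.08 and over all genes -0.02, and 53 of the 82 members lay above 0 where 78 had before. It left 4 members higher and 1 lower, where 10.8% of all genes were higher and 12.5% lower. The 4 higher were Rpl3 (0.68), Rpl5 (0.48), Rpl7l1 (0.47) and Rpl22l1 (0.33), and the 1 lower was Rps4l (-0.54), all on the log2 scale. Quantile normalisation called the same 4 genes higher, 4.88% of the members against 13.8% of all genes. How much of the shift in bright genes belongs to the livers and how much to labelling or scanning cannot be told apart with 1 RNA per array.

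The count of calls also rested on single arrays, for the members and for all genes alike. Without WT replicate 3, 0 members were higher by limma, where 1.45% of all genes were. At an unadjusted p under 0.05, 39 members and 4141 of all 22834 genes were higher in that fit. Without Sec15 KO replicate 3 there was 1, Rpl3, where 2.06% of all genes were higher. Without WT replicate 2 the count was 7 (all genes 5.25%), and without Sec15 KO replicate 1 it was 14 (all genes 6.53%). The members' median stayed between 0.33 and 0.38 with any 1 array left out. WT replicate 3 lay between WT replicates 1 and 2 for 61 of 82 members and for 65.9% of all genes. Sec15 KO replicate 3 lay between the other two of its group for 52 members and 58.4% of genes. Each of 3 exchangeable arrays would on average lie between the others for 33.3% of genes. Genes on an array vary together, so separate samples can depart far from that share. The shares therefore cannot tell whether an array is a separate sample. If either array were not a separate sample, the spread within its group and the adjusted p-values here would be too small, and the labels do not settle this.

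With the scan as a block, 49 members were higher and 1 lower at an unadjusted p under 0.05, beside 4632 and 3325 of 22834 genes. After adjustment 4 members were higher and 0 lower, where 5.15% of all genes were higher, and the members' median was 0.34. The 4 were Rpl3, Rpl5, Rpl13a and Rpl31. As scan 1 holds the WT arrays and Sec15 KO replicate 2, each difference in this fit is that array minus the WT mean. Sec15 KO replicates 1 and 3 add only to the spread. Differences with the scan as a block therefore rest on 1 Sec15 KO array, here and below.

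**Figure D3:**
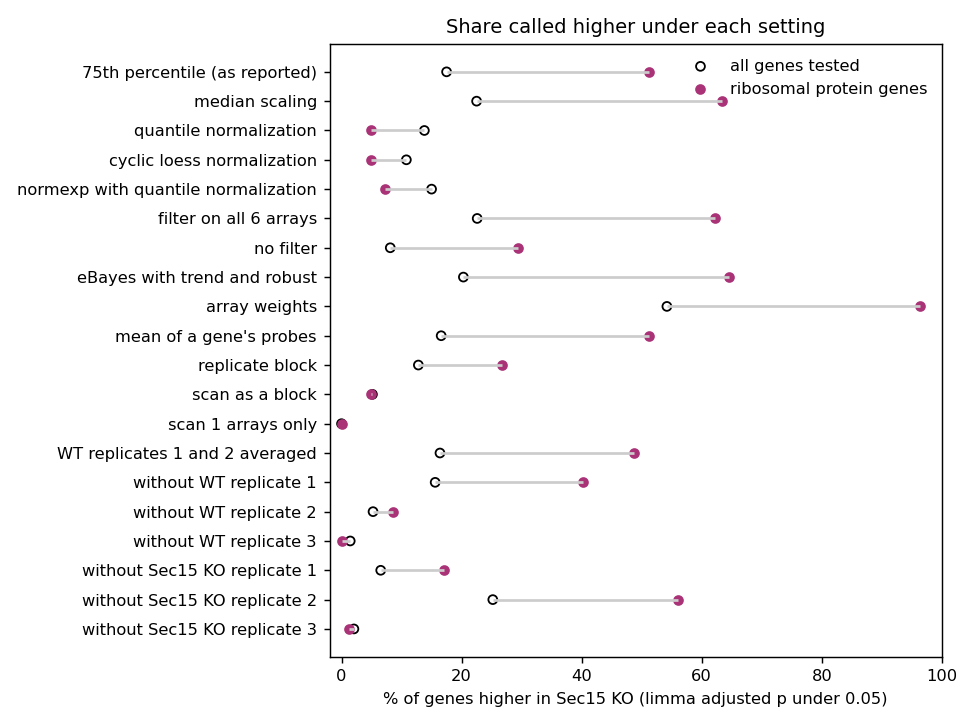
Percent of genes called higher in Sec15 KO by limma at an adjusted p under 0.05 (x axis) under each way of processing (y axis), for the ribosomal protein genes (filled) and all genes tested (open). The filled point reads 51.2% as reported and 4.88% after cyclic loess or quantile normalisation, where it falls below the open point.

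Of the 43 large-subunit proteins outside the stalk and the paralogues, 19 (44.2%) were higher and 0 lower, with a median of 0.35. The share higher was 17.5% over all genes and 35.9% over the other genes in the brightest decile. After cyclic loess 2 of the 43 were higher, where 10.8% of all genes were, and their median was 0.06. Rpl3, which lies near the centre where peptide bonds form, had the largest rise of all members. It read 2.61, 2.69 and 2.67 in WT and 3.75, 3.37 and 3.67 in Sec15 KO. The groups did not overlap, and the difference was 0.94 (SE 0.13, 1.92-fold, limma adjusted p = 0.00849). Its difference remained past the threshold in 17 of 19 alternative settings and ranged from 0.68 to 1.06. Here and below the 19 include array weights, a fit that did not converge. It called 12377 of 22834 genes higher and 9926 lower, so a call kept there says little. The exceptions were the fits without WT replicate 3 (adjusted p = 0.0558) and on scan 1 alone (adjusted p = 0.0862).

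Rpl5 is one of the proteins that carry the 5S ribosomal RNA into the large subunit, and free Rpl5 can bind Mdm2. It read 3.66, 3.48 and 3.60 in WT and 4.39, 4.23 and 4.38 in Sec15 KO, with no overlap. Its rise was 0.75 (SE 0.10, 1.68-fold, limma adjusted p = 0.00891), and 16 of 19 settings kept it past the threshold, at 0.45 to 0.87. Rpl36a, a protein of the exit site, read 4.23, 3.97 and 4.06 in WT and 4.65, 4.69 and 4.73 in Sec15 KO. Its rise of 0.60 (SE 0.10, adjusted p = 0.0138) stood clear of the WT arrays but was 0.33 after cyclic loess (adjusted p = 0.066).

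Rpl38, a small large-subunit protein studied for its part in translating Hox messages, was the most variable member. It read 7.03, 6.02 and 6.53 in WT and 6.25, 6.37 and 6.32 in Sec15 KO. The WT arrays spanned 1.01 on the log2 scale, against a median span of 0.13 over the members, and the Sec15 KO arrays lay inside that span. Its difference of -0.21 (SE 0.25, limma adjusted p = 0.534) did not pass. Both of its probes had the same pattern, and in the brightest decile 83 of 2284 genes had a wider WT span. Rpl38 was singled out after its values were seen.

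Of the 31 small-subunit proteins outside the paralogues, 18 (58.1%) were higher and 0 lower, with a median of 0.36, where 17.5% of all genes were higher. After cyclic loess 0 were higher and 0 lower, with a median of 0.08. Rps7, needed for the small-subunit RNA to mature, read 4.04, 3.77 and 3.95 in WT and 4.53, 4.54 and 4.52 in Sec15 KO, where its 3 arrays were nearly equal. Its rise was 0.61 (SE 0.10, 1.53-fold, limma adjusted p = 0.0136). Rps3, which lies at the entry of the messenger RNA channel, read 4.30, 3.96 and 4.09 in WT and 4.63, 4.78 and 4.76 in Sec15 KO. Its rise was 0.61 (SE 0.12, adjusted p = 0.0186). The groups did not overlap for either gene, and neither was called after cyclic loess (0.34 and 0.33, adjusted p = 0.0646 and 0.104).

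Rpsa, the small-subunit protein also known as the laminin receptor, was among the members with the smallest differences. It read 7.20, 7.17 and 7.23 in WT and 7.16, 7.36 and 7.33 in Sec15 KO, so the groups overlapped. The difference was 0.08 (SE 0.10, 95% interval -0.16 to 0.32, adjusted p = 0.528) and became -0.21 after cyclic loess and -0.12 after quantile normalisation. Its 4 passing probes differed by 0.08 to 0.50, all above 0, and none was called.

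**Figure D4:**
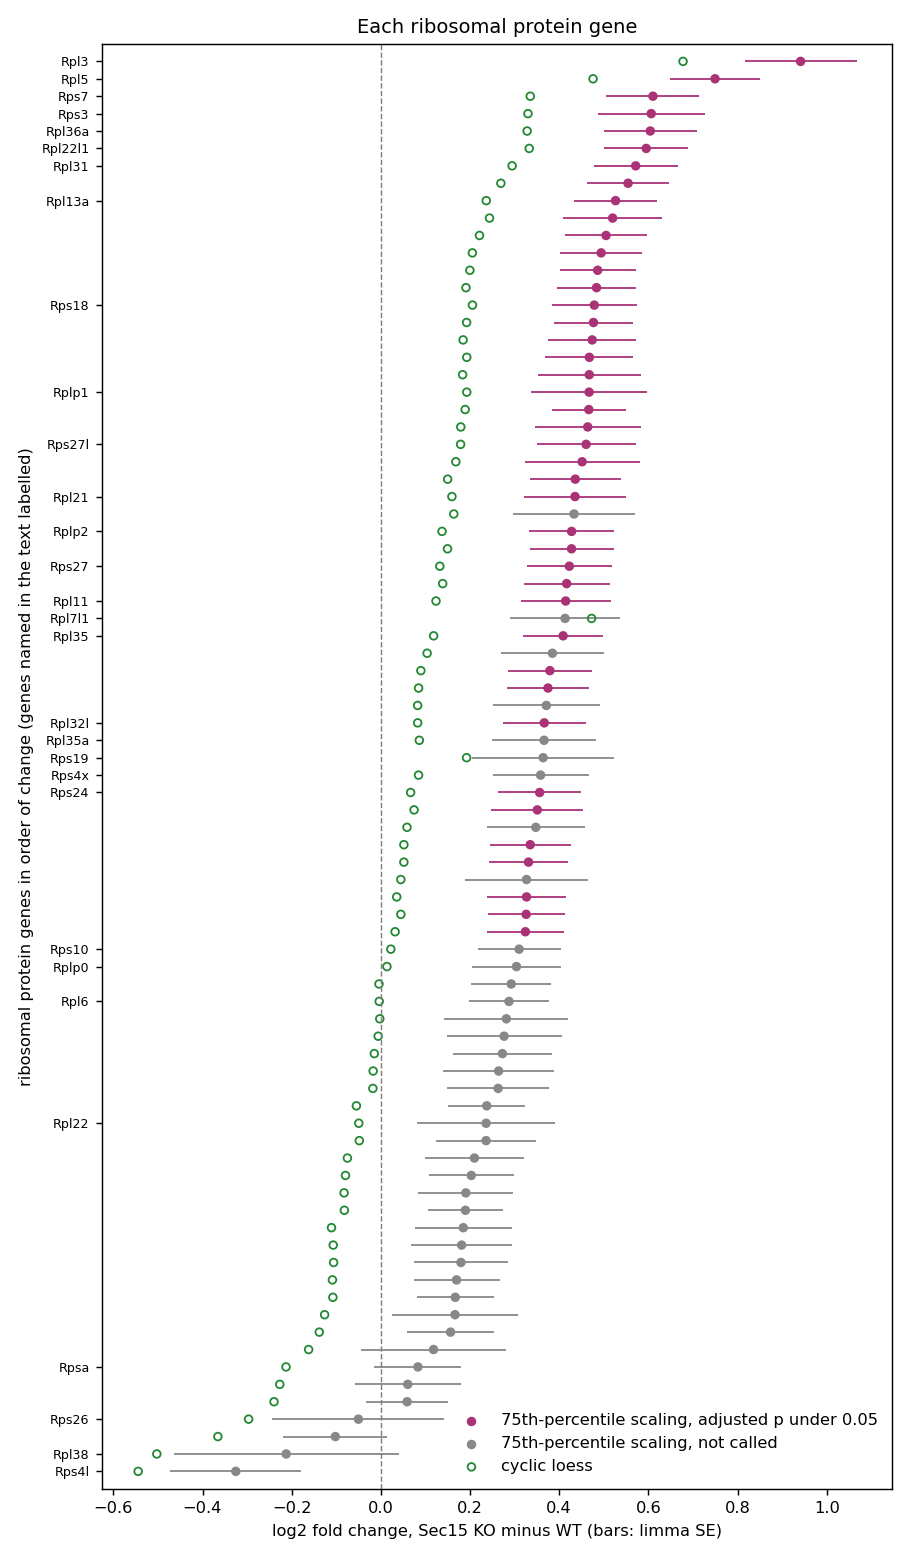
Log2 difference between Sec15 KO and WT (x axis) with its limma SE as a bar for each of the 82 members (y axis, with labels for genes named in the text), coloured where the adjusted p was under 0.05, with the value after cyclic loess as an open circle. Rpl3 leads at 0.94 and Rps4l ends the order at -0.33, and the open circles lie to the left of the filled ones except for Rpl7l1.

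The stalk, a complex of Rplp0 with Rplp1 and Rplp2 that recruits the translation factors, had all 3 members measured. Rplp1 read 3.86, 3.88 and 3.85 in WT and 4.47, 4.08 and 4.45 in Sec15 KO, a rise of 0.47 (SE 0.13, limma adjusted p = 0.0435). Rplp2 read 6.19, 6.31 and 6.29 in WT and 6.60, 6.76 and 6.72 in Sec15 KO, a rise of 0.43 (SE 0.10, adjusted p = 0.025). Rplp0, often used as a reference gene in PCR, read 6.31, 6.29 and 6.34 in WT and 6.72, 6.49 and 6.65 in Sec15 KO. Its difference of 0.30 (SE 0.10, adjusted p = 0.0644) did not pass, though the groups did not overlap for any of the 3 genes. After cyclic loess the 3 differences were 0.19, 0.14 and 0.01, none past the threshold, and that of Rplp0 was -0.02 after quantile normalisation.

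Paralogues are second copies of a ribosomal protein gene with their own pattern of use. Rpl22l1, the paralogue of Rpl22, read 2.87, 2.71 and 2.74 in WT and 3.39, 3.30 and 3.41 in Sec15 KO. Its rise was 0.60 (SE 0.09, 1.51-fold, limma adjusted p = 0.0117), and it was called in 15 of 19 settings. Rpl22 itself differed by 0.24 (SE 0.16, adjusted p = 0.274), with overlapping groups; the difference between the copies was not tested.

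Rps27l, a paralogue of Rps27 and a known p53 target, read 5.15, 4.96 and 4.95 in WT and 5.36, 5.59 and 5.49 in Sec15 KO, a rise of 0.46 (SE 0.11, adjusted p = 0.03). Rps27 rose by 0.42 (SE 0.10, adjusted p = 0.0252). Rpl7l1 read -2.30, -2.57 and -2.38 in WT and -1.84, -2.09 and -2.08 in Sec15 KO. It was the only member among the dimmer genes, in decile 3 by signal, and its 0.41 (SE 0.12, adjusted p = 0.0509) just missed the threshold, whereas cyclic loess gave 0.47 (adjusted p = 0.0419).

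Rps4l is related to Rps4x, and its probe maps to a transcript that RefSeq annotates as non-coding. It read 2.34, 1.86 and 2.08 in WT and 1.86, 1.65 and 1.79 in Sec15 KO. It was the only member with all 3 Sec15 KO values below all 3 WT values, by a narrow margin. Its difference was -0.33 (SE 0.15, adjusted p = 0.137), and Rps4x differed by 0.36 (SE 0.11, adjusted p = 0.0523), again with no test between them. Rpl32l, added to the paralogues after its values were seen, read 5.39, 5.46 and 5.38 in WT and 5.80, 5.68 and 5.84 in Sec15 KO, a rise of 0.37 (SE 0.09, adjusted p = 0.0336) that was -0.02 with normexp and quantile normalisation. The parent genes Rpl22, Rps27 and Rps4x were named after their values were seen. Whether probes for such copies also bind the parent message was not tested.

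Loss of one copy of certain ribosomal protein genes causes Diamond-Blackfan anaemia in people, a failure of red cell production. All 9 genes of a list of these were measured, and 4 (44.4%) were higher: Rpl5, Rps7, Rpl11 and Rps24. Over all genes 17.5% were higher. After cyclic loess 1 of the 9 was higher, Rpl5. Rpl11, which partners Rpl5 on the 5S RNA, read 6.41, 6.20 and 6.32 in WT and 6.71, 6.67 and 6.80 in Sec15 KO, a rise of 0.41 (SE 0.10, limma adjusted p = 0.0303). Rps24 read 6.25, 6.10 and 6.10 in WT and 6.47, 6.54 and 6.52 in Sec15 KO, a rise of 0.36 (SE 0.09, adjusted p = 0.0367). Without overlap between the groups, Rpl35a differed by 0.37 (adjusted p = 0.0594) and Rps10 by 0.31 (adjusted p = 0.0517), or -0.010 after quantile normalisation.

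Rps19, the gene most often affected in that disease, read 1.15, 0.66 and 0.90 in WT and 1.41, 1.12 and 1.27 in Sec15 KO. Its groups overlapped, and the 0.36 (SE 0.16) did not pass (adjusted p = 0.127). Rps26 read 2.52, 2.58 and 2.60 in WT and 2.78, 2.10 and 2.68 in Sec15 KO. Here Sec15 KO replicate 2 was low and the other two were high, and the difference was -0.05 (SE 0.19, adjusted p = 0.853), or 0.16 without that array.

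Erythroid markers moved beside these genes: 3 of the 4 tested were higher, and the mean over the 4 ran from 0.15 to 0.47 in WT and from 2.00 to 2.31 in Sec15 KO. Of 4 Kupffer and 4 endothelial markers, 2 each were higher, and so were 3 of 7 hepatocyte markers, while all 3 measured pancreas markers and 2 of 4 lymphocyte markers were lower. The single muscle marker tested was lower, and 1 of 3 testis markers was higher. Beside these counts, 17.5% of all genes were higher and 12.2% lower. Among genes other than the members in the brightest decile, 35.9% were higher and 3.89% lower. Their part in the ribosomal protein result was not tested.

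Probes of 1 gene mostly read alike. Of 51 members with at least 2 passing probes, 46 had every probe higher in Sec15 KO and 1, Rpl38, had every probe lower. The median spread between probes of a gene was 0.17 on the log2 scale. Tested probe by probe, 79 of 167 were called higher and 1 lower, against 17.1% and 11.6% of all probes. After cyclic loess or quantile normalisation the genes whose probes shared a sign fell from 47 to 24 of 51.

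Probes of 4 genes were of both signs, and 3 of these genes are described. For Rps3, the probe reported above was set against A_55_P2038237, which differed by -0.11 (SE 0.10). For Rpl6, 3 probes lay between 0.24 and 0.40, of which A_55_P2052634 rose (0.40, adjusted p = 0.0234 over all probes), with its brightest probe at -0.01 after quantile normalisation, and the dim A_55_P2043639, above background on 4 arrays, differed by -0.15. For Rpl21, the bright probe read 4.22, 4.11 and 4.14 in WT and 4.74, 4.42 and 4.61 in Sec15 KO, a rise of 0.44 (SE 0.11, adjusted p = 0.0367), and A_55_P2056521 differed by -0.06. In each of these 3 genes the probe that disagreed was not the brightest and did not pass the test.

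**Figure D5:**
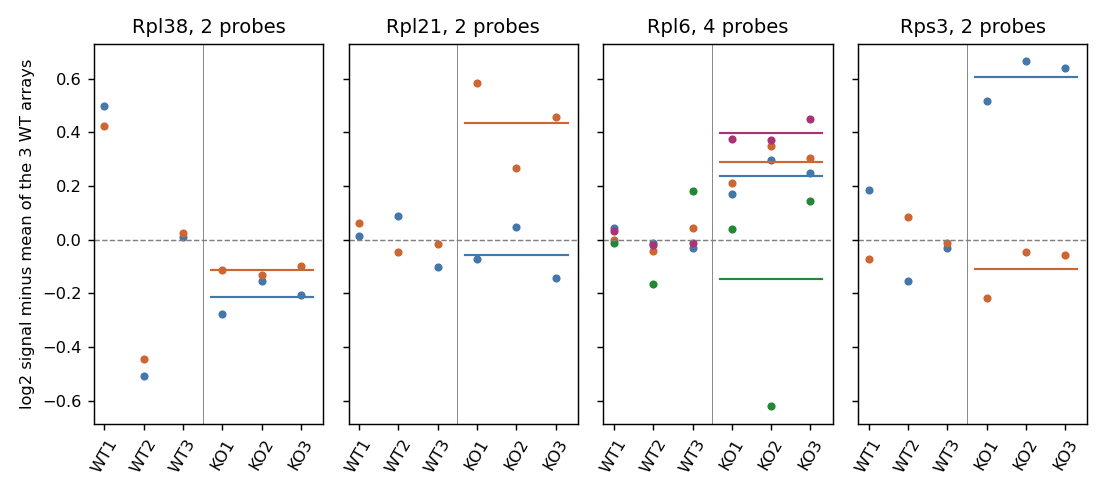
Log2 signal minus the mean of the 3 WT arrays (y axis) on each array (x axis) for every passing probe of 4 genes, 1 colour per probe, with a line at each probe's Sec15 KO mean. Both Rpl38 probes span more among the WT arrays than their means differ from Sec15 KO, and Rps3 has a probe at 0.61 beside one at -0.11.

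Fau, Rack1 and Rpl36al, ribosomal proteins whose symbols fall outside the pattern, differed by 0.16, 0.32 and 0.27, none past limma's test. All 3 had Sec15 KO above WT without overlap. That was so for 30.6% of all genes and 59.9% of the other genes in the brightest decile. After cyclic loess the 3 differed by -0.14, 0.03 and -0.01. Of 47 measured genes for RNA polymerase I and ribosome assembly, 16 (34%) were higher and 0 lower, with a median of 0.35. After cyclic loess 7 were higher, and 7 with the scan as a block. Over all genes 17.5% were higher and 12.2% lower, or 10.8% and 12.5% after cyclic loess. With the scan as a block 5.15% of all genes were higher. These shares stand beside this list and those below, and no list was set against genes of like signal. Nmd3, the adaptor that exports the large subunit from the nucleus, read -1.06, -1.48 and -1.28 in WT and -0.08, 0.03 and 0.02 in Sec15 KO. It rose by 1.26 (SE 0.13, 2.39-fold, limma adjusted p = 0.0062), and by 1.20 after cyclic loess. Tsr1, a factor of small-subunit maturation, rose by 0.78 (adjusted p = 0.00795) and Gnl3, nucleostemin, by 0.75 (adjusted p = 0.00839), with 0.79 and 0.71 after cyclic loess.

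Among 33 measured initiation factors, 16 were higher and 0 lower, with a median of 0.36, and 2 were higher after cyclic loess and 2 with the scan as a block. Eif3h rose by 0.54 (limma adjusted p = 0.0132), Eif1ax by 0.66 (adjusted p = 0.0136) and Eif4a2 by 0.53 (adjusted p = 0.0165), of which Eif1ax was also called after cyclic loess (0.46, adjusted p = 0.0199). Of 8 genes listed under elongation, 3 were higher and 1 lower. Eef1b2, which recharges the elongation factor eEF1A, rose by 0.64 (adjusted p = 0.0105) and its partner Eef1d by 0.63 (adjusted p = 0.0108). Eef1e1, an elongation factor in name only, rose by 0.68 (adjusted p = 0.022). Eif5a, named because it was the 1 that fell, dropped by 0.53 (adjusted p = 0.0408). Among 17 other messages known for a TOP tract, a list that shares genes with those above, 8 were higher and 0 lower, with a median of 0.38, 3 higher after cyclic loess and 4 with the scan as a block; the 3 with the smallest p were Eef1b2, Eef1d and Eif3h.

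Of 17 genes that control ribosome production through mTORC1, LARP1 or MYC, 5 were higher and 1 lower, against 2 and 1 after cyclic loess and 1 and 1 with the scan as a block. Larp4, an RNA-binding protein, rose by 0.53 (limma adjusted p = 0.0136), the transcription factor Yy1 by 0.50 (adjusted p = 0.0149) and Larp1, which binds TOP tracts, by 0.45 (adjusted p = 0.0171). Larp1 lost its call in 9 of 19 alternative settings, with 0.18 after cyclic loess (adjusted p = 0.173) and 0.058 with the mean of its probes (adjusted p = 0.646). The 1 that fell was Eif4ebp2, a repressor of cap-dependent initiation, by 0.48 (adjusted p = 0.0325). Of 8 genes between ribosome stress and p53, Cdkn1a, the p53 target that halts the cell cycle, read -3.25, -2.78 and -2.90 in WT and -1.03, -0.98 and -0.91 in Sec15 KO. It rose by 2.00 (SE 0.15, 4.00-fold, adjusted p = 0.00416), and Mdm4, which restrains p53, fell by 0.91 (adjusted p = 0.0062). With normexp and quantile normalisation the 2 changes kept their calls at 1.1 and -0.31. Nop53, which came next by p, differed by 0.53 (adjusted p = 0.0507), so the list gave 1 higher and 1 lower.

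Of 11 genes that rescue or clear stalled ribosomes, 5 were higher and 1, Gtpbp1, lower (-0.71, limma adjusted p = 0.03). Nemf, which marks stalled chains for removal, rose by 0.56 (adjusted p = 0.0151), Abce1, which splits subunits for reuse, by 0.65 (adjusted p = 0.0195) and Ascc3, a helicase that takes collided ribosomes apart, by 0.49 (adjusted p = 0.0273). After cyclic loess 3 were higher and 1 lower, and with the scan as a block none of these calls held by limma (5 higher and 0 lower at an unadjusted p under 0.05), with Ascc3 at 0.30 (adjusted p = 0.112) and Gtpbp1 at -0.41 (adjusted p = 0.157).

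The mitochondrial ribosomal proteins, a separate set of genes, gave 23 higher and 1 lower of 77, with a median of 0.31, against 0.36 for the cytosolic ones. After cyclic loess 3 were higher and both medians were 0.08. With the scan as a block 0 were higher and 1 lower by limma (16 and 3 at an unadjusted p under 0.05), and the medians were 0.15 for the mitochondrial and 0.34 for the cytosolic genes. Both of these block medians rest on Sec15 KO replicate 2 alone against WT. The difference between the sets was not tested, and the lists' shares stand beside 17.5% of all genes called higher.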

How the data were processed

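Total RNA from 6 liver samples was measured on one-colour arrays. The deposited intensity values, background-subtracted and detrended spot signals from Agilent Feature Extraction 11.0.1.1 per the file headers, were not normalised between arrays. The deposited files also hold other flags per spot, coded 0 or 1, and the median intensity of spot and background used for normexp. Each array had 43020 non-control spots for 39429 probes. Outlier spots were left out and spots of a probe averaged; 40 probe values with no spot left took the probe's mean over the other arrays. Values were log2 processed signals with the 75th percentile of the same array subtracted. Probes well above background on at least 3 arrays were kept (27057), with the brightest per gene, 22834 genes in all, 15558 with a RefSeq symbol through the probe's accession.

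Groups were compared with limma 3.58.1 (lmFit, eBayes) in R 4.3.3, with Benjamini-Hochberg adjustment over all genes at 0.05; the fit was tested on simulated data. The members and gene lists were chosen with earlier results of these data known. Genes named were the 6 largest called rises and falls, every stalk, paralogue, Rpsa and Diamond-Blackfan gene, genes whose probes disagree in sign with 1 past the threshold, and the 3 smallest p of each other list; exceptions are marked, and some genes this rule names are left out. Alternatives were median, quantile, cyclic loess and normexp (offset 50) normalisation, other filters, eBayes with trend, array weights, mean of probes, replicate and scan blocks, scan 1 alone, WT replicates 1 and 2 averaged (their deposited names share a number), each array left out, and subtraction of the median of other genes of like signal. Promoter pieces came from RefSeq.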

Additional observations from a re-analysis of the deposited data

How the results depend on the processing

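The median log2 difference of the members was above 0, and above that of all genes, in all 19 alternative fits. Its size followed the scaling: 0.48 with median scaling (all genes 0.18), 0.062 with quantile normalisation (0.05), 0.083 with cyclic loess (-0.02), 0.070 with normexp and quantile normalisation (0.04), and 0.078 after subtracting the median of other genes in the same decile by signal. The count of members higher, 42 as reported, was 4 (4.88%, all genes 13.8%) with quantile normalisation, 4 (4.88%, all genes 10.8%) with cyclic loess, 6 (7.32%, all genes 15.0%) with normexp, 25 (29.4%, all genes 8.12%) with no filter, 4 (4.88%, all genes 5.15%) with the scan as a block, and 0 by limma on scan 1 alone, as for all genes (37 members and 3856 genes at an unadjusted p under 0.05), where the 1 Sec15 KO array is assumed to vary like WT. Leaving out 1 array gave 0 to 46 higher and 0 lower, where 1.45% to 25.2% of all genes were higher. Array weights gave 79 higher and 3 lower (Rpl38 and Rps4l among them), where 54.2% of all genes were higher and 9926 of 22834 lower, but that estimate did not converge and put nearly all weight on WT replicate 3 (84.0) and Sec15 KO replicate 3 (245.8). Another 1 was lower with cyclic loess (Rps4l) and 1 with no filter (Rpl3l, not above background). The member share called higher exceeded that of all genes in 12 of 19 fits, array weights among them. The cause of these differences was not tested.

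With the replicate number as a block (the replicate block), 22 members (26.8%, all genes 12.8%) were higher, 21 of them among the 42, and 0 lower. Same-numbered arrays deviated together with correlations of 0.111, 0.11 and 0.0163 over genes, so the numbers were not taken to pair the samples.

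Of the named ribosomal protein values, 264 kept their call, 112 lost it, 30 gained one and 12 changed sign, counted over settings. This tally and that of the other lists include array weights. The sign changed for Rps26 with median scaling (0.069), array weights (0.085) and without Sec15 KO replicate 2 (0.16); leaving out each array in turn gave -0.18 to 0.16. With quantile normalisation it changed for Rplp0 (-0.019), Rpsa (-0.12), Rps10 (-0.010) and Rpl6 (-0.014), and with cyclic loess for Rpsa (-0.21) and Rpl6 (-0.0037). With normexp it changed for Rpl32l (-0.021), Rplp0 (-0.028) and Rpsa (-0.0039). Of the genes named from the other translation lists, 333 values kept their call, 103 lost it, 14 gained one and 6 changed sign: Rpl36al (-0.032) and Fau (-0.13) with quantile normalisation, Rpl36al (-0.012) and Fau (-0.14) with cyclic loess, and Rack1 (-0.026) and Rpl36al (-0.035) with normexp. The genes of 1 sign over their probes numbered 24 of 51 with quantile normalisation and cyclic loess. Signal over background limits Rpl10l, Rpl39l and Rpl3l, for which no level is given.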
